A study of Mus musculus with 25 samples.

Results

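The average effect of the loss of miR-302 over 4 stages of mouse neurulation was taken from 24 of 25 expression arrays. For each gene, the difference between knockout (KO) and wild type (WT) was formed from the group means at embryonic day 7.5 (E7.5), E8.0, E8.5 and E9.5, and the 4 differences were averaged with equal weight. A positive value means a higher signal in KO embryos. Each array held biotin-labelled RNA of 1 sample on an Illumina MouseRef-8 v2.0 bead chip, and separate embryos served as replicates according to the design text. All groups were on a B6 background, and the genotype labels were miR-302 KO and WT. Whole embryos were used at E7.5, with 3 KO and 2 WT arrays. The later stages used anterior neural tissue, with 3 KO and 2 WT arrays for E8.0, 3 of each genotype for E8.5 and 4 of each for E9.5. The 25th array, E8.0 WT replicate 1, was labelled as a whole embryo and was left out of the differences. The sources used here do not describe how the KO allele was made.

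MicroRNAs of the miR-302 cluster are abundant in pluripotent and early embryonic cells and fade as tissues differentiate. A microRNA guides Argonaute to messages that pair with its seed, bases 2 to 8 from the 5′ end, and those messages are translated less and decay faster. Cell-cycle inhibitors such as Cdkn1a, and the growth factor Fgf15, are among the targets reported for this family. In the RefSeq table (build GRCm38.p6) the cluster lies on the plus strand of chromosome 3, with miR-302b-3p at chr3:127545275-127545297 and miR-367-3p at chr3:127545779-127545800. The cluster holds miR-302a, miR-302b, miR-302c, miR-302d and miR-367. The mature 3p sequences of the last 4 of these are shown because their seed defines which messages the lost microRNAs could pair with, with the seed in capitals:
miR-302b-3p: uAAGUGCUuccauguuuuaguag
miR-302c-3p: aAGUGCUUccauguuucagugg
miR-302d-3p: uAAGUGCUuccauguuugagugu
miR-367-3p: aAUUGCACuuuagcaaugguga
The 3p forms of miR-302b and miR-302d share 1 seed, and 3 further mature microRNAs among 1679 in the table carry it too. All 3 are encoded on chromosome 7, so embryos without miR-302 may still hold microRNAs with this seed:
miR-291a-3p: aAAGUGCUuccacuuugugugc
miR-294-3p: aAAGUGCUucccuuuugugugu
miR-295-3p: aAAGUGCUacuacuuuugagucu

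No probe measured the microRNAs themselves, so the genotype labels had no check in these arrays. Larp7, the gene whose intron holds the cluster, and Lats2, a reported target, were detected on 0 arrays, and Lefty1, another reported target, on 1 array. These 3 genes were not tested. The identity of the E8.0 WT arrays was in doubt. For those 3 arrays the deposited signals did not follow the detection p-values filed under the same name, with a rank correlation of at most 0.883 in size, against at least 0.959 for the other 22. The detection columns and the deposited processed values shared 1 assignment of the 3 arrays, and the signal headers gave another. Signals were kept under their own names, and main results are given under the other assignment as well. Under that assignment the signal headed replicate 2 is the whole embryo and is left out, and those headed replicates 1 and 3 form the WT group. The mean log2 signal of 20 cardiac and striated muscle genes was 6.55 in E8.0 WT replicate 2 and 8.46 in replicate 3, against 6.71 in the array labelled as a whole embryo. The signal headed replicate 3 is in the E8.0 WT group under both assignments. The signal headed replicate 2 held transcripts of both sexes. Xist of the X chromosome (6.28) and Eif2s3y of the Y chromosome (7.32) were detected together on no other array. The reason was not tested. E8.0 KO replicate 1 also stood apart. It had 10933 probes detected, the fewest of all arrays, a mean of 7.05 for neural progenitor genes against 7.52 and 7.60 in the other E8.0 KO arrays, and 8.52 for pluripotency and epiblast genes against 7.61 and 7.48. The E9.5 arrays shared plate 4, with raw medians of 222 to 262, while those of the other stages lay on plates 1 to 3 at 107 to 148. Stage and plate cannot be told apart at E9.5. Genotype and plate were partly mixed at E8.5. No WT array was on plate 3, which held only E8.5 KO replicates 2 and 3. E8.5 KO replicate 1 shared plate 2 with the 3 E8.5 WT arrays. Every result below from arrays that shared a plate with the other genotype therefore rests on 1 KO array at E8.5. The same holds with plate as a covariate, where the term for plate 3 takes up E8.5 KO replicates 2 and 3. Named genes that lost their call in both of these fits had the same mean in each, such as 0.60 for Dner. The 2 fits are therefore not separate checks. In bulk tissue, fewer cells of a type and less RNA per cell cannot be told apart either.

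Averaged over the stages, the fibroblast growth factor Fgf15, the endothelin receptor Ednrb, the cyclin-dependent kinase inhibitor Cdkn1a and the reported target Dazap2 were among the genes that rose in KO embryos. Bcas1, the putative glutamine transporter Slc38a8, the calcium-binding protein Calb2 and the transcriptional repressor Tgif1 were among those that fell. Of 10261 genes tested, 216 rose (2.11%) and 132 fell (1.29%) at an adjusted p under 0.05 (limma). Of these 348 genes (3.39%), 190 had the same sign at all 4 stages, 113 higher (1.1% of all genes) and 77 lower (0.75%). The same sign at all 4 stages was met in 54.6% of the genes that passed and in 13.1% of all genes (1348 genes), which calling on the mean partly fixes. The counts depended on single E8.0 arrays. Without E8.0 WT replicate 2, 115 genes rose and 50 fell, of which 70 and 30 had the same sign throughout. Without E8.0 KO replicate 3, 280 genes fell, 133 of them with the same sign. The number of falls was 81 without E8.0 WT replicate 3, 79 without E8.5 WT replicate 1, 86 without E8.5 KO replicate 2, 82 without E9.5 WT replicate 2, 86 without E9.5 KO replicate 2 and 86 without E9.5 KO replicate 4. Falls with the same sign then numbered 49, 43, 51, 49, 46 and 50, in that order of arrays. With the other assignment of the E8.0 WT arrays, 186 genes rose and 111 fell, 108 and 68 with the same sign, and 146 of the 190 passed again. Without E8.0 KO replicate 1, 174 of the 190 passed again. With plate as a covariate the 4 counts were 108 and 79, and 72 and 51 with the same sign. From arrays that shared a plate with the other genotype they were 149 and 107, and 92 and 65, and 104 of the 190 passed again.

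**Figure D1:**
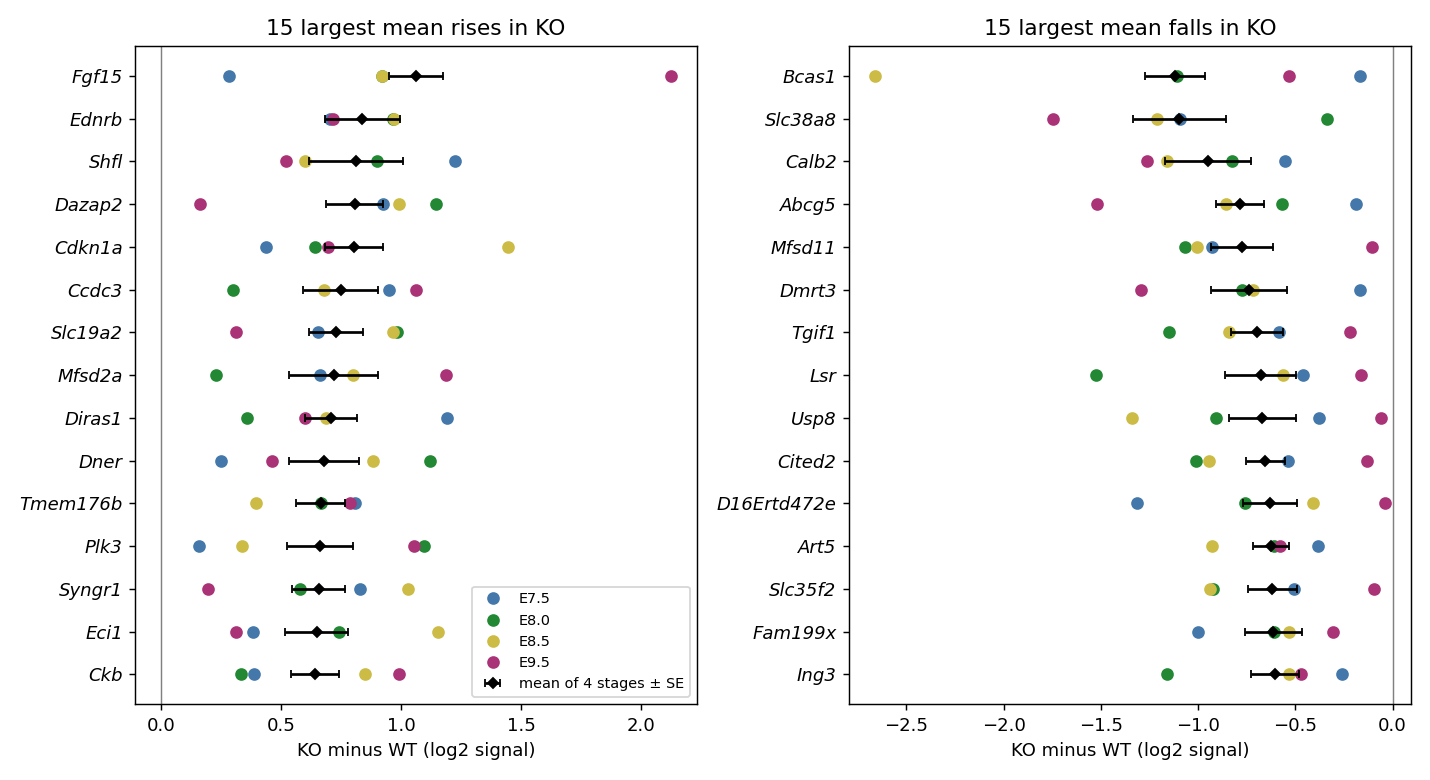
KO minus WT difference in log2 signal (horizontal axis) for the 15 genes with the largest mean rise (left) and the 15 with the largest mean fall (right) among genes that passed with the same sign at all 4 stages and were detected in every group. Coloured points are the 4 stages, black diamonds the mean with its standard error; the E9.5 point of Fgf15 lies at 2.13 and the E8.5 point of Bcas1 at -2.66, while Ednrb stays between 0.70 and 0.97.

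Among signalling genes, Fgf15, an FGF ligand of the neural tube and midbrain, rose by 1.06 on the log2 scale (standard error, SE, 0.11; adjusted p = 3.52e-05, limma), or 2.09-fold. It had the largest mean rise of the genes that passed with the same sign at all stages and were detected in every group. At E7.5 its normalized log2 signal was 9.26, 8.46 and 8.65 in KO embryos and 8.44 and 8.58 in WT embryos, and the groups overlapped. It was 9.84, 10.56 and 10.17 in KO and 9.20 and 9.34 in WT tissue at E8.0, and 10.26, 10.04 and 10.44 in KO and 9.34, 9.37 and 9.27 in WT tissue at E8.5. At E9.5 it was 10.93, 10.80, 10.57 and 10.29 in KO tissue, against 8.78, 8.73, 8.44 and 8.12 in WT tissue. Every KO array lay above every WT array from E8.0 on. The difference was 0.28 at E7.5 and 2.13 at E9.5, and it differed between stages (F test over the stages, adjusted p = 0.00931, limma).

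Ednrb, the receptor for endothelins in neural crest and progenitors of the central nervous system, was nearly even over the stages by its brightest probe. Its differences were 0.70, 0.97, 0.97 and 0.71 (mean 0.84, SE 0.16, adjusted p = 0.00709, limma). Its values at E7.5 were 8.58, 8.22 and 8.11 in KO embryos and 6.93 and 8.27 in WT embryos. At E8.0 it read 9.70, 10.80 and 10.75 in KO tissue and 9.69 and 9.21 in WT tissue. The groups overlapped at E7.5 and lay close together at E8.0. At E8.5 the values were 10.76, 10.98 and 10.66 in KO tissue and 9.90, 9.99 and 9.60 in WT tissue. At E9.5 they were 11.10, 10.88, 11.34 and 11.69 in KO tissue and 10.81, 10.59, 10.45 and 10.32 in WT tissue, again without overlap. A second kept probe of Ednrb had a mean of 0.59 that did not pass (adjusted p = 0.106, limma) and was at -0.097 at E7.5. Dner, a neuronal transmembrane ligand of Notch, rose by 0.68 (SE 0.14, adjusted p = 0.014, limma), with 1.12 at E8.0 and 0.25 at E7.5. Without E8.0 WT replicate 2, Dner was at 0.56 and no longer passed (adjusted p = 0.0572), nor did it with plate as a covariate (0.0515), within plates (0.056) or with the replicate block (0.0567).

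Of 22 measured p53 target genes, 4 rose and 0 fell, against 2.11% and 1.29% of all genes. Cdkn1a, which encodes the p21 inhibitor of the cell cycle and is both a p53 target and a reported target of miR-302, rose by 0.81 (SE 0.12, adjusted p = 0.00159, limma), 1.75-fold. Its signal at E7.5 was 9.29, 9.38 and 9.45 in KO embryos and 9.17 and 8.70 in WT embryos. At E8.0 it was 7.14, 7.46 and 7.99 in KO tissue and 6.65 and 7.13 in WT tissue. KO arrays stood above WT arrays at both stages, by a narrow margin at E8.0. At E8.5 the signal was 7.54, 7.91 and 7.85 in KO tissue against 6.12, 6.64 and 6.21 in WT tissue, the widest gap. At E9.5 it was 8.02, 8.15, 8.51 and 8.0 in KO tissue and 8.04, 7.32, 7.20 and 7.36 in WT tissue, with 1 WT array inside the KO range. The 2 other kept probes of Cdkn1a had means of 0.52 and 0.71 and passed as well. Without E8.5, its mean over the other 3 stages was 0.59 (adjusted p = 0.0561).

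The other p53 targets that rose were Ccng1, Rrm2b and Ei24. Rrm2b, a subunit of ribonucleotide reductase used in DNA repair, rose by 0.53 (SE 0.09, adjusted p = 0.0041, limma), with stage differences of 0.21, 0.72, 0.89 and 0.28. Ei24, an endoplasmic reticulum protein of autophagy, rose by 0.53 (SE 0.14, adjusted p = 0.0482). Its call was lost in 18 of the 24 fits that left out an array, with an adjusted p of up to 0.135 without E7.5 WT replicate 2. Ccng1, cyclin G1, had a mean of 0.92 but did not keep 1 sign, with 0.78, 1.45 and 1.66 at the first 3 stages and -0.20 at E9.5. The median of the 22 targets was 0.06, with 13 above 0, against a median of 0.0039 and 5254 of 10261 above 0 among all genes. The polo-like kinase Plk3, a stress-response kinase outside the list, rose by 0.66 (SE 0.14, adjusted p = 0.0127), with 1.10 at E8.0 and 1.06 at E9.5 but 0.16 at E7.5.

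Of 19 measured genes reported as targets of the miR-302 family, 5 rose, Cdkn1a, Fgf15, Dazap2, Casp2 and Irf2, each with the same sign at all stages, and 1 fell, Arid4b, against 2.11% and 1.29% of all genes. Like the other gene lists, this list was written with earlier results of these data known, so its counts are not independent of them. Dazap2, a small proline-rich protein, rose by 0.81 (SE 0.12, adjusted p = 0.00153, limma). At E7.5 it read 9.66, 9.16 and 8.87 in KO embryos and 8.62 and 7.99 in WT embryos, and at E8.0 10.05, 10.41 and 9.82 in KO tissue and 9.12 and 8.77 in WT tissue. Its values at E8.5 were 10.20, 10.58 and 10.54 in KO tissue and 8.93, 9.70 and 9.73 in WT tissue. These 3 stages showed no overlap and differences of 0.93, 1.15 and 0.99. At E9.5 the KO values 11.23, 11.49, 11.38 and 11.65 overlapped with the WT values 11.47, 11.24, 11.20 and 11.19, and the difference was 0.16. Casp2, an initiator caspase, rose by 0.37 (SE 0.07, adjusted p = 0.00752), with 0.66 and 0.56 at E8.0 and E8.5 and 0.18 and 0.09 at E7.5 and E9.5.

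Irf2, an interferon regulatory factor, rose by 0.41 (SE 0.10, adjusted p = 0.0344, limma), with 0.11 at E7.5 and about 0.51 at each later stage (0.51, 0.51 and 0.52). It lost its call in 11 of 24 fits without an array (adjusted p up to 0.0867, without E7.5 WT replicate 1) and with the other assignment of the E8.0 WT arrays (0.0704). Arid4b, a subunit of the Sin3 corepressor complex, fell by 0.50 (SE 0.12, adjusted p = 0.031), although its difference at E8.0 was 0.06. It lost its call in 5 such fits (adjusted p up to 0.0919, without E7.5 WT replicate 2) and with the other assignment (0.0635). The list as a whole had a median of 0.02, with 10 of 19 genes above 0, and 13 of the 19 did not pass. Lefty2, a secreted antagonist of Nodal and a reported target, had a mean of 0.34 (SE 0.23, adjusted p = 0.437), which rested on 1.74 at E7.5, where E7.5 WT replicate 2 read 4.89 against 7.93 in replicate 1. Without that array the mean was -0.043.

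Of 29 measured genes of neuronal differentiation, 7 rose and 0 fell, and 21 were above 0 with a median of 0.19, against 2.11% and 1.29% called and a median of 0.0039 among all genes. The median was 0.076 with the authors' deposited values and 0.090 without background correction, and 4 genes rose with median scaling. Only Uchl1, the neuronal ubiquitin hydrolase, combined its call with the same sign throughout (0.60, SE 0.10, adjusted p = 0.00197, limma), with 1.42 at E7.5 and 0.19, 0.22 and 0.55 after it. The mean log2 signal of the list was 6.71 to 6.88 in KO and 6.43 to 6.50 in WT embryos at E7.5. It was 7.13 to 7.19 in KO and 6.95 to 7.02 in WT tissue at E8.0, and 7.30 to 7.36 in KO and 7.08 to 7.12 in WT tissue at E8.5. KO arrays exceeded WT arrays at these 3 stages, while at E9.5 the KO range of 8.08 to 8.5 overlapped with the WT range of 8.05 to 8.20.

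Outside that list, Syngr1, a protein of synaptic vesicles, rose by 0.66 (SE 0.11, adjusted p = 0.00281, limma), with 0.83, 0.58, 1.03 and 0.20 over the stages. The other kept probe of Syngr1 had a mean of 0.65 that did not pass (adjusted p = 0.0566, limma). Cplx1, complexin 1 of the vesicle fusion machinery, rose by 0.63 (SE 0.17, adjusted p = 0.0458), but its call was lost in 16 of the 24 fits without an array, with an adjusted p of up to 0.142 without E8.0 WT replicate 2. Rimkla, which makes the neuropeptide N-acetylaspartylglutamate, rose by 0.51 (SE 0.07, adjusted p = 0.0012), with 0.60, 0.61, 0.38 and 0.44. Diras1, a small GTPase of the Ras family found in brain, rose by 0.71 (SE 0.11, adjusted p = 0.00159). Its log2 signal was 7.06, 6.96 and 7.59 in KO embryos against 5.86 and 6.16 in WT embryos at E7.5, the stage with its largest difference, and KO arrays lay above WT arrays at all 4 stages.

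Ly6h, a GPI-anchored protein of brain that binds nicotinic receptors, had the largest mean rise of the genes that passed with the same sign throughout, 1.15 (SE 0.12, adjusted p = 3.52e-05, limma). It was not detected on either E7.5 WT array, so its mean fold is a bound of at least 2.10. Its values at E7.5 were 6.72, 6.58 and 6.61 in KO embryos and 5.28 and 5.52 in WT embryos, and at E8.0 7.37, 8.35 and 7.97 in KO and 7.32 and 6.75 in WT tissue. At E8.5 it read 9.16, 9.21 and 8.62 in KO and 7.49, 7.65 and 7.18 in WT tissue. At E9.5 it read 10.19, 10.53, 10.97 and 10.91 in KO and 9.66, 9.56, 9.67 and 9.89 in WT tissue. The signal climbed with stage in both genotypes, and the groups did not overlap at any of the 4 stages. For genes not detected on any array of a group, the bound sets the brighter group against, on each array of the dimmer group, the lowest detected signal or the gene's own signal, whichever is higher.

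Ckb, the brain form of creatine kinase, which buffers ATP, rose by 0.64 (SE 0.10, adjusted p = 0.00167, limma). Its signal was among the brightest. At E7.5 it read 13.19, 12.85 and 12.79 in KO and 12.37 and 12.74 in WT embryos, and at E8.0 12.94, 12.72 and 12.82 in KO and 12.37 and 12.62 in WT tissue. Its values at E8.5 were 13.02, 13 and 12.38 in KO and 12.13, 11.96 and 11.76 in WT tissue. At E9.5 it read 14.40, 14.36, 14.45 and 14.45 in KO and 13.65, 13.61, 13.54 and 12.90 in WT tissue. At each stage every KO array lay above every WT array, although the margins at E7.5 and E8.0 were small.

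Slc19a2, a thiamine transporter, rose by 0.73 (SE 0.11, adjusted p = 0.00159, limma), with 0.66, 0.98 and 0.97 at the first 3 stages and 0.31 at E9.5. Eci1, an enzyme of mitochondrial fatty acid oxidation, rose by 0.65 (SE 0.13, adjusted p = 0.0115), with 1.15 at E8.5 and 0.31 to 0.74 at the other stages. With plate as a covariate its adjusted p was 0.0585. Mfsd2a, a lysophospholipid transporter of the blood-brain barrier, rose by 0.72 (SE 0.19, adjusted p = 0.0373) and lost its call in 15 of the 24 fits without an array (adjusted p up to 0.108, without E8.0 WT replicate 3). Among lipid genes with even differences, the ceramide kinase Cerk rose by 0.49 (SE 0.10, adjusted p = 0.0116), with 0.43 to 0.56 at every stage, and the phospholipid flippase Atp10a by 0.61 (SE 0.13, adjusted p = 0.0141), with 0.43 to 0.79. Atp10a did not pass with plate as a covariate (0.0839), within plates (0.0582) or with the authors' deposited values (0.0677).

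Tmem176b, a membrane protein studied in dendritic cells, rose by 0.66 (SE 0.10, adjusted p = 0.00166, limma). Its values at E7.5 were 8.5, 8.06 and 8.16 in KO and 7.59 and 7.27 in WT embryos, and at E8.0 8.27, 7.64 and 7.92 in KO and 7.59 and 6.97 in WT tissue. At E8.5 it read 8.05, 7.81 and 7.82 in KO and 7.61, 7.27 and 7.62 in WT tissue, and at E9.5 7.14, 7.41, 7.22 and 7.69 in KO and 6.61, 6.26, 6.75 and 6.69 in WT tissue. The groups were apart at every stage. Crip2, a LIM domain protein of heart and vessels, rose by 0.48 (SE 0.08, adjusted p = 0.00275), with 0.38, 0.52, 0.38 and 0.63, also without overlap at any stage. Shfl, an antiviral inhibitor of ribosomal frameshifting, rose by 0.81 (SE 0.19, adjusted p = 0.0265), with 1.22 at E7.5 and 0.52 at E9.5. It did not pass with the other assignment of the E8.0 WT arrays (adjusted p = 0.0664), nor without E7.5 WT replicate 2 (0.0616), E8.0 WT replicate 2 (0.0889) or E8.5 KO replicate 2 (0.0503). Ccdc3, a secreted coiled-coil protein, rose by 0.75 (SE 0.16, adjusted p = 0.0132), with 1.06 at E9.5 and 0.30 at E8.0, and was at 0.65 without E8.0 WT replicate 2 (adjusted p = 0.0542).

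**Figure D2:**
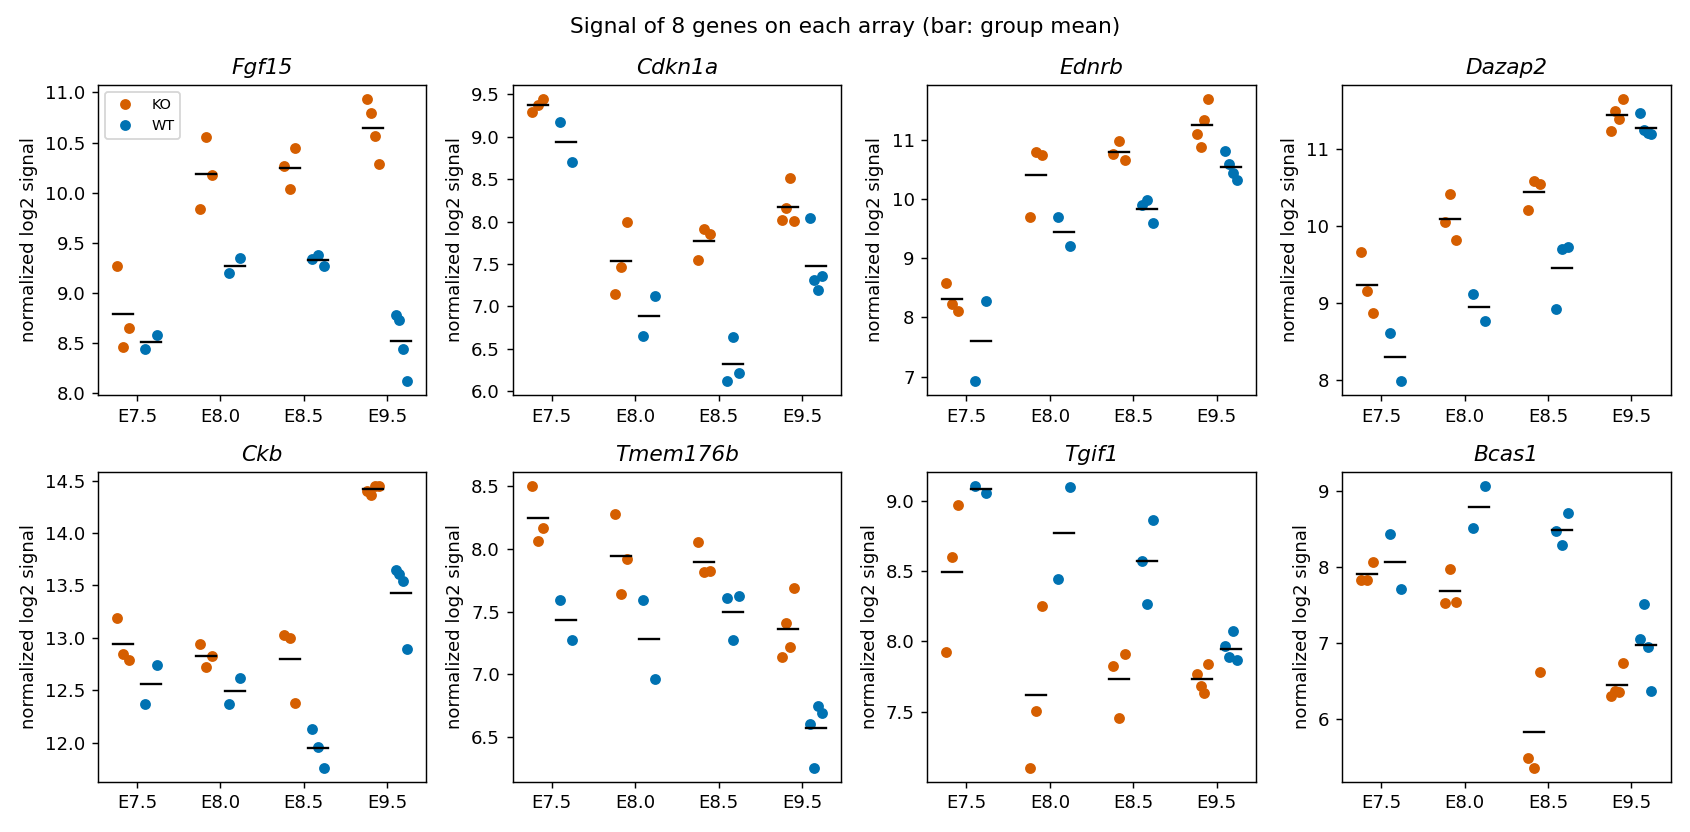
Normalized log2 signal (vertical axis, own scale per gene) of 8 genes on each array at E7.5, E8.0, E8.5 and E9.5, with KO arrays in orange left of WT arrays in blue and bars at group means. Ckb, Tmem176b and Tgif1 show KO and WT arrays apart at every stage, Fgf15 from E8.0 on, and Dazap2 up to E8.5.

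KO and WT arrays did not overlap at 3 or 4 stages for 46 of the 113 rises and 29 of the 77 falls, against 284 of all genes (2.77%), which the choice of genes by their difference largely fixes. Without overlap at all 4 stages, 10 genes were higher (0.0975% of all genes) and 2 lower (0.0195%). Besides Ckb, Crip2, Diras1, Ly6h and Tmem176b, these were Alg2, Dbndd2, Rab28, Stk39 and Syp on the higher side, and Tgif1 and Prkcd on the lower side. The genes other than Ckb, Crip2, Diras1, Ly6h, Tmem176b and Tgif1 were singled out after their values were seen. Stk39, a kinase that activates chloride cotransporters, was at 0.47 (SE 0.06, adjusted p = 0.00047, limma) and Syp, the synaptic vesicle protein synaptophysin, at 0.41 (adjusted p = 0.00409). Rab28 was at 0.36, Dbndd2 at 0.39 and the mannosyltransferase Alg2 at 0.33. Prkcd, protein kinase C delta, was at -0.28 (adjusted p = 0.0256).

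Among regulators of transcription that fell, Tgif1, a repressor of TGF-beta and retinoid signalling whose human form is mutated in holoprosencephaly, fell by 0.70 (SE 0.14, adjusted p = 0.00844, limma). At E7.5 it read 7.92, 8.60 and 8.97 in KO and 9.11 and 9.06 in WT embryos, and at E8.0 7.10, 7.51 and 8.25 in KO and 8.44 and 9.10 in WT tissue. Its values at E8.5 were 7.82, 7.45 and 7.91 in KO and 8.58, 8.27 and 8.87 in WT tissue. At E9.5 it read 7.77, 7.68, 7.64 and 7.84 in KO and 7.97, 7.89, 8.07 and 7.87 in WT tissue. All KO arrays lay below the WT arrays of their stage, by the smallest margin at E9.5, where the difference was -0.22. A second kept probe of Tgif1 had a mean of -0.64 that did not pass (adjusted p = 0.0935), and the remaining one had -0.13 (0.579) with 0.56 at E8.0.

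Cited2, a coactivator partner of CBP and p300 that mice need for neural tube closure, fell by 0.65 (SE 0.10, adjusted p = 0.00159, limma). It read 7.87, 7.77 and 8.0 in KO and 8.30 and 8.53 in WT embryos at E7.5, and 7.70, 7.20 and 7.79 in KO and 8.34 and 8.80 in WT tissue at E8.0. At E8.5 it read 7.64, 7.0 and 7.49 in KO and 8.58, 8.06 and 8.32 in WT tissue. The groups were apart at these 3 stages. At E9.5 the KO values 8.53, 8.42, 8.65 and 8.71 overlapped with the WT values 8.81, 8.98, 8.53 and 8.51. Dmrt3, a transcription factor of dorsal forebrain and spinal interneurons, fell by 0.74 (SE 0.20, adjusted p = 0.0437), with -1.29 at E9.5 and -0.17 at E7.5. Its call was lost in 19 of the 24 fits without an array (adjusted p up to 0.107, without E7.5 WT replicate 1). Ing3, a subunit of a histone acetyltransferase complex, fell by 0.61 (SE 0.12, adjusted p = 0.0109), with -1.16 at E8.0. Arid3b, an AT-rich DNA-binding factor, fell evenly by 0.40 (SE 0.10, adjusted p = 0.0323), with -0.30 to -0.65, and lost its call in 9 of 24 such fits (adjusted p up to 0.0912, without E7.5 WT replicate 2).

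Bcas1, known as a marker of early myelinating oligodendrocytes, had the largest mean fall of the genes that passed with the same sign, -1.12 (SE 0.15, adjusted p = 0.000959, limma). Its values at E7.5 were 7.82, 7.83 and 8.06 in KO and 8.43 and 7.71 in WT embryos, and at E8.0 7.52, 7.97 and 7.54 in KO and 8.51 and 9.06 in WT tissue. Its values at E8.5 were 5.49, 5.37 and 6.63 in KO tissue against 8.47, 8.29 and 8.71 in WT tissue. At E9.5 it read 6.31, 6.37, 6.36 and 6.74 in KO and 7.06, 7.52, 6.96 and 6.38 in WT tissue. The gap was widest at E8.5, at -2.66, and the groups overlapped at E7.5 and E9.5, so the difference varied with stage (F test, adjusted p = 0.00949). Without E8.5 the mean was -0.60 (adjusted p = 0.136). Calb2, the calcium-binding protein calretinin of interneurons, fell by 0.95 (SE 0.22, adjusted p = 0.0232), with -0.55, -0.83, -1.16 and -1.26. A second kept probe of Calb2 had a mean of -0.51, did not pass (adjusted p = 0.0599) and was at 0.036 at E8.5. Without E8.0 WT replicate 3 Calb2 was at -0.86 (adjusted p = 0.0697).

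Among transporters, Slc38a8, a putative sodium-coupled glutamine transporter, fell by 1.10 (SE 0.24, adjusted p = 0.0162, limma), with -1.09, -0.34, -1.21 and -1.75. Its E8.0 difference was 0.11 with the other assignment of the E8.0 WT arrays, its mean was -0.87 without E8.0 WT replicate 2 (adjusted p = 0.0613), and within plates it did not pass (adjusted p = 0.113). Abcg5, a half-transporter of sterols, fell by 0.78 (SE 0.12, adjusted p = 0.00167), with -0.19 at E7.5 and a wider gap at each later stage. At E9.5 it read 7.16, 7.35, 6.98 and 6.71 in KO tissue and 8.19, 8.23, 8.57 and 9.27 in WT tissue, without overlap. Slc35f2, of the solute carrier 35 family, fell by 0.62 (SE 0.12, adjusted p = 0.0107) and Mfsd11 by 0.78 (SE 0.16, adjusted p = 0.012), both with differences of -0.10 at E9.5. Lsr, a lipoprotein receptor of tricellular junctions, fell by 0.68 (SE 0.18, adjusted p = 0.0457), with -1.52 at E8.0. It lost its call in 18 of 24 fits without an array (adjusted p up to 0.128, without E8.0 WT replicate 3) and with the other assignment (0.0777).

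Art5, an ADP-ribosyltransferase, fell by 0.62 (SE 0.09, adjusted p = 0.00147, limma), with -0.38, -0.61, -0.93 and -0.58. It read 6.12, 6.76 and 6.88 in KO and 6.85 and 7.09 in WT embryos at E7.5, where the groups overlapped, and 6.09, 6.18, 6.58 and 6.55 in KO and 6.97, 7.04, 6.90 and 6.80 in WT tissue at E9.5, where they did not. Usp8, an endosomal deubiquitinase, fell by 0.67 (SE 0.17, adjusted p = 0.0381), with -1.34 at E8.5 and -0.058 at E9.5, and lost its call in 15 of 24 fits without an array (adjusted p up to 0.0911, without E7.5 WT replicate 2) and with the other assignment (0.0573). Fam199x fell by 0.61 (SE 0.15, adjusted p = 0.0265) and did not pass without E7.5 WT replicate 2 (0.0606), E8.0 WT replicate 2 (0.0759) or E8.5 KO replicate 2 (0.0503). D16Ertd472e fell by 0.63 (SE 0.14, adjusted p = 0.0155), with -1.31 at E7.5 and -0.039 at E9.5, and did not pass with plate as a covariate (0.0915) or within plates (0.0703). Frmd6, a FERM protein of the Hippo pathway, fell by 0.38 (SE 0.07, adjusted p = 0.00992), with -0.29 to -0.50. The other kept probe of Frmd6 had a mean of -0.16 that did not pass (adjusted p = 0.535, limma), with 0.17 at E8.0 and 0.036 at E8.5. Acrbp, known from the acrosome of sperm, fell by 0.59 (SE 0.12, adjusted p = 0.0104), with -0.30 to -0.87. Capn6, a calpain without protease activity, fell by 0.49 (SE 0.11, adjusted p = 0.0202), but was at -0.42 without E8.0 WT replicate 3 (adjusted p = 0.0697) and at -0.43 without E7.5 WT replicate 1 (0.0534). The matrix enzyme Loxl1 (-0.57, adjusted p = 0.0499) and the Rab15 effector Rep15 (-0.52, adjusted p = 0.0426) lost their calls in 19 and 16 of 24 fits without an array, with an adjusted p of up to 0.129 without E8.0 WT replicate 3 and 0.104 without E8.0 WT replicate 2.

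Of the 15 largest rises and 15 largest falls, 27 passed again with the other assignment of the E8.0 WT arrays, and 20 passed in every fit that left out 1 array. Fgf15, Ednrb, Dazap2, Slc19a2, Diras1, Tmem176b, Ckb, Abcg5, Cited2 and Art5 passed in each of these fits and under each alternative run, except the fit that treats the 4 stage differences as the only units. Other probes existed for 7 of the 30 genes, and all 10 of these probes had the same direction, 3 of them with a call. Over all 86 named genes that passed, 36 did not pass with plate as a covariate, 30 within plates, 22 with the authors' deposited values and 7 with the mean of a gene's probes. Besides genes whose loss is given beside them, those lost with plate as a covariate were Shfl, Mfsd2a, Slc38a8, Mfsd11, Dmrt3, Lsr, Usp8, Slc35f2, Fam199x, Cplx1, Arid3b, Sfn, Synm, Exo1, Uqcrb, Eif1ad, Gpx8, Arid4b, Irf2, Gap43, Ebf1, Wnt1, Tcf7l2, Disp1, Smarcd3, Ccna2, Mcm7, Ndufb9 and Nnat. Other kept probes opposed the call for Elf2, Rbm14 and Synm, in 5 of 35 probes of 22 genes. The 7 genes lost with the mean of a gene's probes were Usp8, Synm, Aldh1a2, Elf2, Rbm14, Cttn and Nnat. The other kept probe did not pass for Usp8 (mean -0.36, adjusted p = 0.156, limma), Aldh1a2 (-0.26, 0.535) and Nnat (-0.053, 0.90).

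Another 41 of the 190 genes had at least 1 group without detection on any array. Besides Ly6h, Lypd6b, a relative of the Ly6 family, rose by 0.83 (SE 0.13, adjusted p = 0.00167, limma) with a bound of at least 1.46-fold, and 0.08 at E9.5. Sfn, the epithelial 14-3-3 sigma, rose by 0.84 (SE 0.21, adjusted p = 0.0355), at least 1.45-fold. It lost its call in 12 of 24 fits without an array (adjusted p up to 0.105, without E8.0 WT replicate 3). The other kept probe of Sfn had a mean of 0.29 that did not pass (adjusted p = 0.254, limma), with -0.16 at E9.5. The granin Scg3 of secretory granules rose by 0.79 (SE 0.20, adjusted p = 0.0362), with 1.44 and 1.18 at E8.5 and E9.5, and lost its call in 11 such fits (adjusted p up to 0.108, without E8.0 WT replicate 3). Utf1, a chromatin factor of pluripotent cells, rose by 0.72 (SE 0.16, adjusted p = 0.0175), through 1.25 at E7.5 and 1.44 at E8.0 and with 0.16 and 0.036 later. It did not pass with plate as a covariate (0.139) or within plates (0.0772), and 1 KO array at E7.5 and 1 at E8.0 lay on plate 2 while the WT arrays of these stages lay on plate 1. No fold is given for Scg3 and Utf1, which were undetected in both groups of a stage.

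Among falls of this kind, the intermediate filament protein Synm fell by 0.67 (SE 0.14, adjusted p = 0.012, limma), at least 1.3-fold by its brightest probe, with -0.57 to -0.80. Its 2 other kept probes had means of 0.054 and 0.099 (adjusted p = 0.875 and 0.783), and with the mean of its probes Synm was at -0.17 and did not pass (0.386). Elf2, an ETS factor, fell by 0.64 (SE 0.13, adjusted p = 0.0102), at least 1.12-fold by its brightest probe. Its other 4 kept probes had means of -0.63, -0.39, 0.11 and 0.037 and none passed, and Elf2 did not pass with the mean of its probes (-0.30, adjusted p = 0.0548) or the authors' deposited values (0.09). Nrg1, a ligand of ErbB receptors, fell by 0.67 (SE 0.15, adjusted p = 0.0207), with -1.12 and -1.07 at E8.0 and E8.5, and did not pass without E7.5 WT replicate 1 (0.0533) or E8.0 WT replicate 2 (0.0609). Aldh1a2, the enzyme that makes retinoic acid in the early embryo, fell by 0.66 (SE 0.18, adjusted p = 0.0463), with -1.16 at E7.5 and -0.082 at E9.5. It lost its call in 19 of 24 fits without an array (adjusted p up to 0.11, without E7.5 WT replicate 2) and with the other assignment (0.074). The exonuclease Exo1 (-0.64, adjusted p = 0.0476) lost its call in 21 such fits (adjusted p up to 0.122, without E8.0 WT replicate 2). The other kept probe of Exo1 had a mean of -0.44 that did not pass (adjusted p = 0.103, limma).

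The 113 rises had median differences of 0.41, 0.46, 0.53 and 0.27 at E7.5, E8.0, E8.5 and E9.5, and the 77 falls had -0.36, -0.61, -0.59 and -0.16. E9.5 gave the smallest of the 4 differences in 99 of the 190 genes (52.1%), against 41.9% of all 1348 genes with 1 sign. E8.5 gave the largest in 67 (35.3%) and E9.5 in 27 (14.2%), against 29.7% and 18.4% of all genes, and these shares were not tested. On their own, 87 of the 190 genes passed at no single stage, 86 at 1 stage and 17 at 2 or more. For comparison, 23 of all genes (0.224%) passed at E7.5, 172 (1.68%) at E8.0, 574 (5.59%) at E8.5 and 229 (2.23%) at E9.5. The part of plate in the number at E8.5 was not tested. The F test for a difference between stages called 585 of all genes (5.7%), 10 of the 190 and 92 of the 158 genes that passed in the mean without a common sign. That count was 232 without E9.5 WT replicate 4, 247 without E9.5 WT replicate 3 and 1095 without E8.0 KO replicate 3. It was also 1022 without E7.5 KO replicate 1, 340 and 357 without E8.0 WT replicates 2 and 3, 307 without E8.5 WT replicate 1, 310 without E8.5 KO replicate 2, 387 without E9.5 WT replicate 2, and 298, 328 and 303 without E9.5 KO replicates 1, 3 and 4. With the other assignment of the E8.0 WT arrays it was 316.

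Genes that passed in the mean without a common sign most often differed at E9.5. Of the 158, 130 had the opposite sign at E9.5, and 81 were higher at the first 3 stages and lower at E9.5 (23.3% of the genes that passed, against 12.2% of all genes). Another 40 were lower and then higher (11.5%, against 13.2% of all genes). Stmn3, a neuronal stathmin that binds tubulin, had 1.14, 1.5 and 2.43 at the first 3 stages and -0.0054 at E9.5 (mean 1.27, SE 0.18, adjusted p = 0.00105, limma). At E8.5 it read 8.29, 8.52 and 8.5 in KO tissue against 6.17, 5.33 and 6.52 in WT tissue, and at E9.5 7.59, 7.90, 7.81 and 8.06 in KO against 7.19, 7.74, 7.83 and 8.60 in WT tissue. Its groups were apart at E8.5 and overlapped at E9.5. Taf9b, a subunit of transcription factor complexes, had 1.57, 1.09 and 1.28 and then -0.51 (mean 0.86, adjusted p = 0.0106). Wnt7a, a Wnt ligand, and Neurog2, a proneural factor, had the other order. Wnt7a was at 0.21, -0.11, 2.18 and 1.64 (mean 0.98, adjusted p = 0.00111) and Neurog2 at -0.11, 0.20, 1.52 and 1.44 (mean 0.76, adjusted p = 0.00747). Both were undetected in both genotypes at a stage, so no fold is given. The other kept probe of Neurog2 had a mean of 0.10 (adjusted p = 0.804, limma), with 0.49 at E8.5 and -0.12 at E9.5.

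On the lower side without a common sign, Foxd4, a forkhead factor of the early neural plate, had the largest mean, -1.21 (SE 0.27, adjusted p = 0.0175, limma), through -3.38 at E8.5. At that stage it read 7.53, 6.25 and 7.01 in KO tissue and 10.46, 9.97 and 10.52 in WT tissue, far apart. At E8.0 KO replicate 1 read 11.68 and lay above both WT arrays, 10.60 and 10.98, while the other KO arrays read 8.91 and 9.08. The semaphorin Sema4f was at -2.20 and -2.07 at E8.0 and E8.5 and at 0.40 and 0.41 at E7.5 and E9.5 (mean -0.86, adjusted p = 0.0249), and did not pass without E7.5 WT replicate 2 (0.0685) or E8.0 WT replicate 2 (0.0665). The RNA-binding protein Rbm14 was at -1.21, -1.56 and -1.03 and then 0.53 (mean -0.81, adjusted p = 0.0156). Its other kept probe had a mean of 0.16 (adjusted p = 0.405), and Rbm14 did not pass with the mean of its probes (0.116), the authors' deposited values (0.162) or plate as a covariate (0.109). Cttn, a cortical actin protein, was at -0.77, -1.49 and -0.69 and then 0.097 (mean -0.71, adjusted p = 0.0185). The 3 other kept probes of Cttn (-0.45, -0.13 and -0.21) did not pass, nor did Cttn with the mean of its probes (0.0781) or plate as a covariate (0.0803). Mip, known as the lens water channel, was at 0.097, -1.02, -1.20 and -1.0 (mean -0.78, adjusted p = 0.00806).

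**Figure D3:**
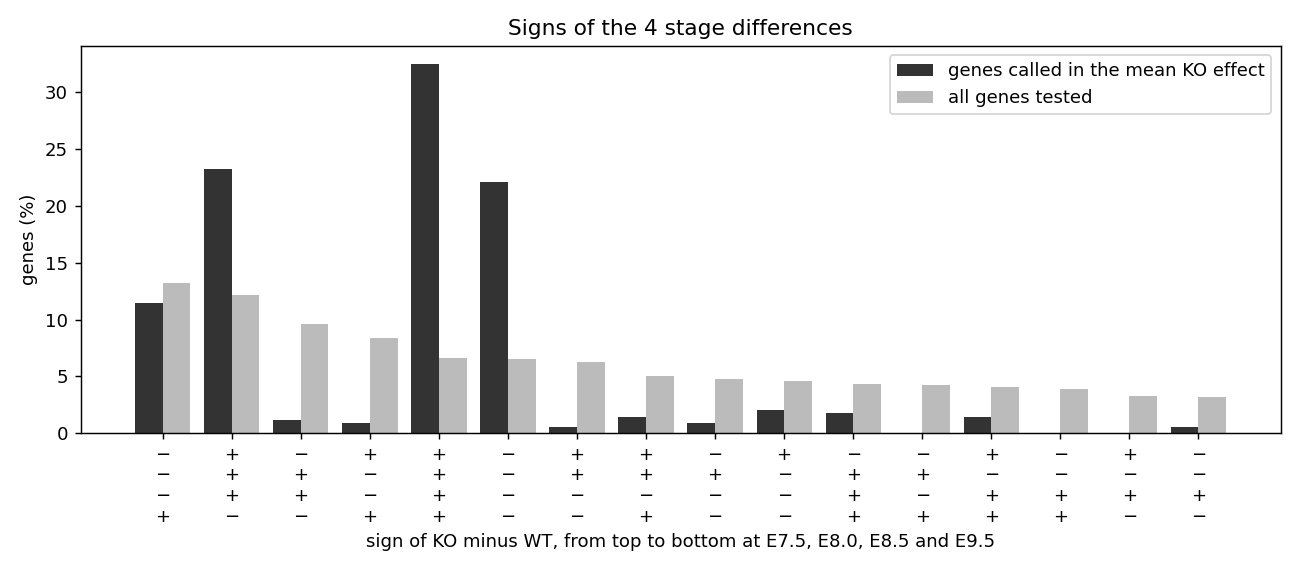
Share of genes in percent (vertical axis) with each of the 16 combinations of signs of KO minus WT, read from E7.5 at the top to E9.5 at the bottom, for the 348 genes that passed in the mean (dark) and all 10261 genes (light). Genes that passed were 32.5% higher at all stages and 22.1% lower at all stages, against 6.64% and 6.5% of all genes; 23.3% were higher until E8.5 and lower at E9.5, against 12.2%, and 11.5% were lower until E8.5 and higher at E9.5, against 13.2%.

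Of the genes that passed both in the mean and in the F test, 5 with the smallest F test p are given here. Uqcrb, a subunit of respiratory complex III, was at -0.018, 0.91, 0.86 and -0.51 (mean 0.31, SE 0.08; F test adjusted p = 0.00606, limma). At E8.0 it read 10.23, 10.04 and 9.86 in KO and 9.21 and 9.06 in WT tissue, and at E9.5 11.21, 11.50, 10.95 and 11.52 in KO and 11.67, 11.79, 11.82 and 11.95 in WT tissue. KO arrays lay above WT arrays at the first of these stages and below them at the second. Scg5, a neuroendocrine chaperone, was at 1.93, 0.96, 0.67 and -0.62 (mean 0.73; F test adjusted p = 0.0066). The Ras-related Rab3d of secretory vesicles was at -1.37 at E8.5 and 0.26 at E9.5 (F test adjusted p = 0.0066). The peroxidase Gpx8 was at 1.01 at E8.5 and -0.35 at E9.5 (F test adjusted p = 0.0066), and Eif1ad at -0.61 at E8.0 and 0.46 at E9.5 (F test adjusted p = 0.0066). Their calls in the mean were lost in 6 of 24 fits without an array for Uqcrb, 9 for Eif1ad and 1 each for Rab3d (without E8.0 WT replicate 2, adjusted p = 0.0561) and Gpx8 (without E8.0 WT replicate 3, 0.0733), with up to 0.0808 for Uqcrb and 0.0851 for Eif1ad without E8.0 WT replicate 3.

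Other gene groups held few members that passed in the mean, though in some lists the share exceeded the 2.11% and 1.29% of all genes. Of 45 genes of the respiratory chain, 2 rose, Ndufb9 of complex I (0.68, SE 0.16, adjusted p = 0.0207, limma) and Uqcrb, and 0 fell. Ndufb9 did not pass without E8.0 WT replicate 2 (0.0759). In all, 42 of the 45 were above 0, with a median of 0.10, through medians of 0.22 and 0.21 at E8.0 and E8.5 against -0.16 at E9.5. Of 35 Wnt pathway genes, 2 rose, Wnt1 (0.53, adjusted p = 0.00964) and Wnt7a, and 2 fell, the effector Tcf7l2 (-0.36, adjusted p = 0.0486) and the R-spondin receptor Lgr5 (-0.62, adjusted p = 0.0023), with a median of -0.14. At an unadjusted p under 0.05 (limma) there were 20 of the 35 Wnt pathway genes, against 2027 of all 10261 genes. Wnt1 rested on 1.56 at E9.5, with 0.10 to 0.26 before it, and Lgr5 on -1.41 at E7.5. Tcf7l2 was even, with -0.22 to -0.45, but lost its call in 18 of 24 fits without an array (adjusted p up to 0.106, without E7.5 WT replicate 2). Of 19 midbrain and isthmus genes, Fgf15 and Wnt1 rose and 0 fell, with list medians of -0.41 and -0.29 at E8.0 and E8.5 and 0.70 at E9.5. Of 21 FGF pathway genes, only Fgf15 rose and 0 fell.

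Of 13 genes of the Shh pathway and ventral patterning, 12 were below 0 in the mean (median -0.12), and 1 fell, Disp1, which releases Shh (-0.27, SE 0.06, adjusted p = 0.022, limma). Disp1 did not pass without E7.5 WT replicate 1 (0.0508) or E8.0 WT replicate 2 (0.0646). List medians were -0.26, -0.82 and -0.34 before E9.5 and 0.67 at E9.5. Of 30 cell cycle and replication genes, the helicase subunit Mcm7 fell (-0.58, SE 0.14, adjusted p = 0.0233) and Ccna2 rose (0.29, adjusted p = 0.0499), with a median of -0.011. Mcm7 did not pass without E7.5 WT replicate 2 (0.0677) or E8.0 WT replicate 2 (0.0594), nor with the other assignment (0.051), and Ccna2 lost its call in 18 of 24 fits without an array (adjusted p up to 0.112, without E8.0 WT replicate 2). None of 24 neural progenitor genes, 24 glycolysis and hypoxia genes, 46 cytosolic ribosomal proteins, 18 genes of the microRNA machinery, 17 histone genes and 14 interferon response genes passed in either direction (limma), and their medians lay between -0.080 and 0.025. At an unadjusted p under 0.05 there were 5, 4, 6, 2, 1 and 1 such genes, in that order of lists, against 2027 of all 10261 genes. The mean signal of neural progenitor genes was 7.05 to 7.60 in KO and 7.69 to 7.70 in WT tissue at E8.0. At E9.5 it was 8.41 to 8.58 in KO and 7.77 to 8.18 in WT tissue, and the groups overlapped at E7.5 and E8.5. Without overlap, glycolysis and hypoxia genes were lower in KO at E8.5 and higher at E9.5. Cytosolic ribosomal proteins were higher before E9.5 and lower at E9.5, also without overlap. Of 16 imprinted growth genes, 1 fell, Nnat (-0.50, adjusted p = 0.0486), with a median of -0.091. Nnat lost its call in 19 of 24 fits without an array (adjusted p up to 0.125, without E8.0 WT replicate 2). Of 24 measured neighbours of Larp7, Ugt8a (0.68, adjusted p = 0.00584) and, by its brightest probe only, Neurog2 rose and 0 fell, with a median of -0.021. Ugt8a, an enzyme of myelin lipids, was at 1.78 at E7.5 and 0.12 and -0.066 at E8.5 and E9.5.

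**Figure D4:**
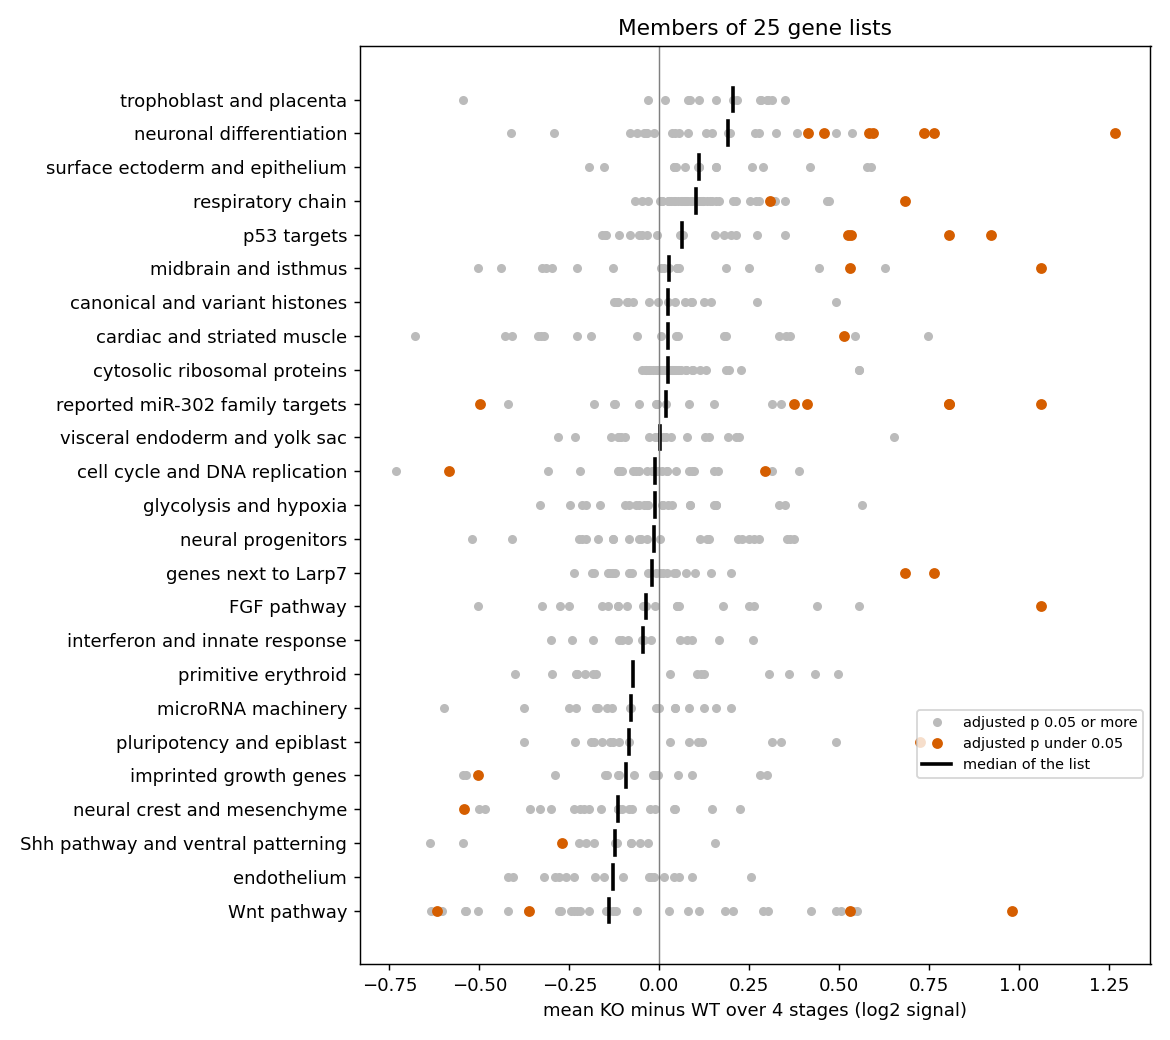
Mean KO minus WT difference over the 4 stages in log2 signal (horizontal axis) for the measured members of 25 gene lists (rows); orange points passed at an adjusted p under 0.05, grey points did not, and black bars mark the list medians. Medians run from -0.14 for the Wnt pathway to 0.21 for trophoblast and placenta.

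Markers of other tissues were set beside these results. Trophoblast and placenta genes had 13 of 15 above 0 and a median of 0.21, and none passed (limma; 4 at an unadjusted p under 0.05). Their mean signal was 8.95 to 9.68 in KO tissue against 8.24 to 8.61 in WT tissue at E8.0 and 6.54 to 6.64 in KO against 6.85 to 7.09 in WT tissue at E9.5, opposite in direction. Within plates, 8 of the 15 were above 0. Surface ectoderm and epithelium genes had 14 of 16 above 0 (median 0.11, none passed, 3 at an unadjusted p under 0.05), and neural crest and mesenchyme genes 19 of 23 below 0 (median -0.12), of which Pdgfra, a growth factor receptor of mesenchyme, fell (-0.54, SE 0.14, adjusted p = 0.0365, limma). Pdgfra lost its call in 12 of 24 fits without an array (adjusted p up to 0.088, without E8.0 WT replicate 2). Endothelial genes had 13 of 18 below 0 (median -0.13), primitive erythroid genes 8 of 16 (median -0.072) and visceral endoderm and yolk sac genes 10 of 20 (median 0.0034), without a call in limma (4, 2 and 1 at an unadjusted p under 0.05). Of 20 cardiac and striated muscle genes, Smarcd3, a chromatin remodelling subunit of heart, rose (0.52, SE 0.12, adjusted p = 0.019), although it was at -0.26 at E7.5 and did not pass without E8.0 WT replicate 2 (0.0699). Of 17 pluripotency and epiblast genes only Utf1 passed. The part of these tissues in the differences above was not tested.

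How far a stage shared its KO effect with the others was described without tests across genes, which are not independent. The stages share no arrays, but they share normalization and the estimate of spread. Across 10261 genes, Pearson's r between the KO minus WT differences was 0.33 for E8.0 and E8.5, 0.18 for E7.5 and E8.0, 0.036 for E7.5 and E8.5 and 0.015 for E7.5 and E9.5. It was -0.24 for E8.0 and E9.5 and -0.17 for E8.5 and E9.5. From arrays sharing a plate with the other genotype, the same pairs gave 0.24, -0.054, -0.032, 0.13, -0.17 and -0.11. With the authors' deposited values they gave 0.50, 0.32, 0.13, -0.021, -0.33 and -0.30. Of the genes called at a single stage, 49 were shared by E8.0 and E8.5, and the 47 of them with the same sign made up 27.3% of the E8.0 calls and 8.19% of the E8.5 calls. E8.0 and E9.5 shared 5, all with opposite signs, and E8.5 and E9.5 shared 28, 14 with the same sign.

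When a stage was left out and genes were called on the mean of the other 3, the stage left out shared the sign of 68.1% of them at E7.5, 82.6% at E8.0, 81.3% at E8.5 and 27.2% at E9.5. For all genes tested the shares were 55.9%, 57.8%, 57.7% and 38.1%. The numbers of genes called were 364, 121, 75 and 975. Within plates the shares were 55.4%, 72.8%, 79.7% and 45.4%, against 50.6%, 51.6%, 52.3% and 41.9% of all genes. With the other assignment of the E8.0 WT arrays they were 72.6%, 84.8%, 77.0% and 30.4%, against 57.7%, 59.1%, 55.7% and 39.0% of all genes. At E7.5, E8.0 and E8.5 the share exceeded that of all genes in each of these 3 settings. At E9.5 it was below that of all genes over all arrays and with the other assignment, and above it within plates.

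**Figure D5:**
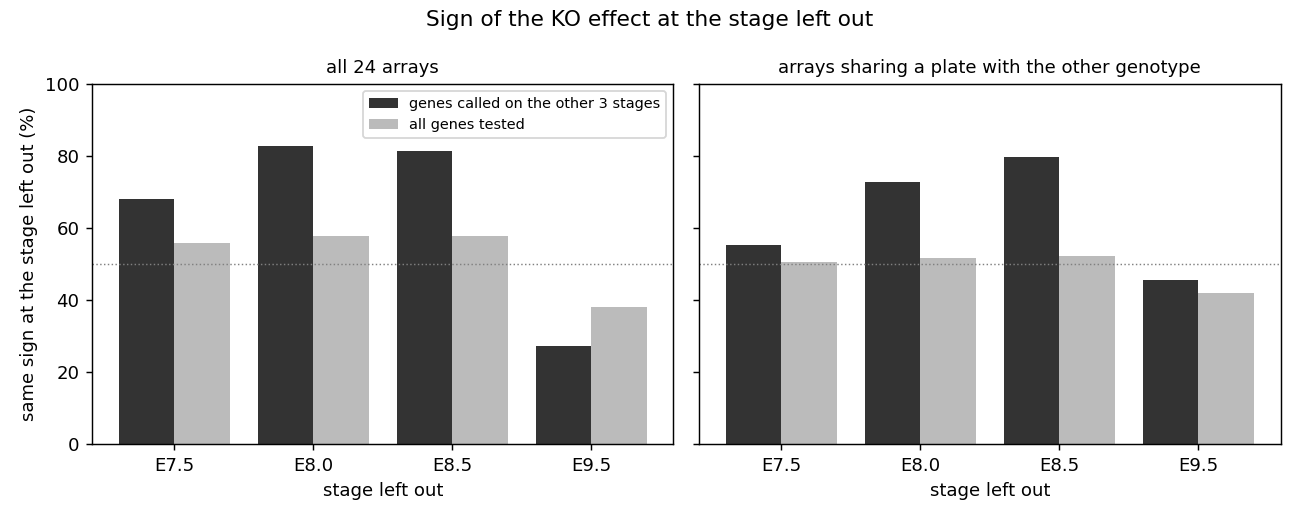
Percent of genes with the same sign of KO minus WT at the stage left out (horizontal axis) as in the mean of the other 3 stages, for genes called on those 3 stages (dark) and all genes tested (light), over all 24 arrays (left) and over arrays sharing a plate with the other genotype (right); the dotted line marks 50%. At E8.0 and E8.5 the dark bars stand between 72.8% and 82.6%, at E9.5 at 27.2% and 45.4%.

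At the edge of the selection, Zfp354a was the member closest to a change of sign, at 0.00013 at E7.5 (mean 0.47, adjusted p = 0.0421, limma), and Xrn2 the gene nearest outside, at 0.0013 at E9.5 with a mean of -0.60. Hp1bp3 was the last to pass (mean 0.23, adjusted p = 0.0499) and Adgrb2 the first not to (mean 0.50, adjusted p = 0.0502). These 4 genes were chosen for these values. Sex-linked genes were left out of the rankings, and 0 of the 4 measured passed in the mean. Sex was uneven between the genotypes within stages. At E7.5, Xist was detected on KO replicate 1 only, and Eif2s3y read 7.74 and 7.71 in the WT embryos. At E8.0, Xist was detected on both WT arrays (6.28 and 7.85) but only on replicate 3 of the KO arrays (8.03). At E9.5, Eif2s3y was detected only on WT replicate 4 and KO replicate 4. The part of sex in the differences was not tested.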

How the data were processed

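The raw table held signal intensity on a linear scale and a detection p-value for 25697 probes per array, without normalization, per the file headers. The sources used here do not name the tools behind these values or the authors' deposited processed intensity values. Each signal column was paired with the detection column it best fell with, a choice made after the data were seen. The neqc function (limma 3.58.1, R 4.3.3) corrected the deposited signals for background inferred from detection p, added an offset of 16, normalized quantiles and took log2. Probes with detection p under 0.05 on at least 3 arrays were kept (15030), 885 of them without a gene symbol. Of all probes 23978 had 1 symbol, 0 several and 1719 none. The brightest kept probe stood for each of 10261 genes, 2752 of which had more. Deposited symbols of 23962 probes matched RefSeq (GRCm38.p6) and 16 did not. The files name no build, so no gene coordinates are given.

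A linear model with 9 groups (16 residual degrees of freedom) gave the mean of the 4 KO minus WT contrasts and the F test over stages (lmFit and eBayes, two-sided, Benjamini-Hochberg over all genes). "Passed", "rose" and "fell" mean an adjusted p under 0.05, and every adjusted p of a gene comes from limma. The array left out of the contrasts stayed in the fit as its own group. The number of arrays limits the precision, and scripts were tested on simulated data.

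Named genes were the 15 largest changes per direction among genes called with the same sign and detected in all 8 groups; the 10 per direction with the largest smallest stage difference; 5 per direction undetected in a group; 5 per direction called without a common sign; the 5 with the smallest F test p; called list members, or else the 2 with the smallest p; and 8 genes of known interest (Cdkn1a, Fgf15, Lats2, Lefty1, Lefty2, Larp7, Neurog2, Ccng1). Members and lists were chosen with earlier results of these data known. Alternatives covered background, scaling, probe choice and filter, array identity, plate, replicate number, stage weights, spread, and leaving out each stage and each of 24 arrays.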

Additional observations from a re-analysis of the deposited data

Results flagged for a closer look

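Single E9.5 arrays stood far from the other 3 of their group (a gap past Dixon's 95% critical value) in 17 of 218 groups checked, where chance gives about 1 in 20. In KO tissue, replicate 3 read 6.58 for Shfl, 7.56 for Scg5, 5.99 for Lhx2 and 11.98 for Pdk1, replicate 4 read 6.74 for Bcas1 and 7.72 for Cttn, and replicate 1 read 5.52 for Ifit3, all in log2 signal. In WT tissue, replicate 1 read 11.47 for Dazap2, 10.14 for Frmd6, 11.31 for Ei24, 7.96 for Disp1 and 4.48 for Apoa4. WT replicate 4 read 5.99 for Diras1, 12.90 for Ckb, 6.72 for Slc35f2, 6.37 for Wnt7a and 5.06 for Hand1.

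The KO minus WT difference varied between stages (limma F test) in 22 of the named genes. The adjusted p was 0.00931 for Fgf15, 0.00949 for Bcas1, 0.0211 for Stmn3, 0.00823 for Wnt7a, 0.00823 for Ccng1, 0.0250 for Taf9b, 0.0298 for Neurog2, 0.0217 for Foxd4, 0.00931 for Sema4f, 0.0314 for Rbm14 and 0.00606 for Uqcrb. It was 0.0066 for Eif1ad, Rab3d, Scg5 and Gpx8, 0.0151 for Elavl2, 0.0147 for Gap43, 0.0332 for Uchl1, 0.00901 for Wnt1, 0.0151 for Lgr5, 0.0155 for Hand1 and 0.0147 for Ugt8a.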

How the results depend on the processing

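Counts are given as genes higher, lower, higher with the same sign at all 4 stages and lower with the same sign, against 216, 132, 113 and 77, followed by the stage F test against 585. They were 82, 57, 52, 34 and 212 with median scaling, 108, 79, 72, 51 and 294 with plate as a covariate, 131, 81, 77, 45 and 136 with the replicate block, and 68, 25, 63 and 23 in an additive model of stage and genotype. They were 89, 32, 71 and 21 without E8.0, 58, 17, 45, 12 and 204 without E8.5, and 522, 453, 457, 417 and 13 without E9.5. With the 4 stages as units, a fit with few degrees of freedom, 0, 0, 0 and 0 genes passed (627 at an unadjusted p under 0.05). The F test alone moved to 986 without background correction, 1035 without E7.5, 951 with a robust trended spread, 316 with the other assignment of the E8.0 WT arrays, 393 within plates and 1074 with the authors' processed values under the signal headers' assignment, an alternative added after the data were seen. Leaving out single arrays gave 115 to 322 genes higher, 50 to 280 lower, 70 to 144 and 30 to 133 with the same sign, and 232 to 1095 in the F test. Lefty2, which did not pass, turned to -0.13 without E7.5, and ranged from -0.043 without E7.5 WT replicate 2 to 0.72 without E7.5 WT replicate 1 when single arrays were left out, and Hand1 turned to -0.048 without E8.0. The 190 genes kept the direction of their mean in every setting, 157 of them being measured under the stricter filter. Replicate numbers did not pair the samples: same-numbered arrays correlated at -0.133 to 0.159, over 0.1 in 1 of 11 pairs. Causes of these changes were not tested. Genes near background can only be given bounds, and 2 or 3 arrays a group limit the precision.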
